A study of Mus musculus with 9 samples.

Results

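Cytotoxic lymphocytes kill through granules that hold granzymes and perforin, through the death ligand Fasl, and under the control of receptors first known from natural killer (NK) cells. 10 genes of this equipment were followed in regulatory T cells of wild type and conditional Sirt1 knockout mice: the granzymes Gzma, Gzmb and Gzmk, the pore former Prf1, Fasl, the granule membrane protein Nkg7, and the receptors Klra8, Klrd1, Klrk1 and Cd160. They were chosen by name, with earlier results of these data known. Every probe set annotated to a member and to no other gene was read, which gave 14 probe sets of 22626 on the array and 10 genes of 12393. Each gene was tested by its probe set with the highest mean. All 10 genes passed the filter on low signal and were tested with 7436 genes in all. For 9 of them the wild type mean alone lay above that filter, at a log2 signal of 4.98. Gzmk, at 4.95 in wild type cells, passed only through its higher signal in the knockouts.

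The cells were CD4+CD25+ regulatory T cells, separated magnetically from C57BL6 mice, and RNA was hybridised to single-colour Affymetrix arrays. 3 groups of 3 arrays each were compared: wild type cells, cells of a conditional knockout of Sirt1 by CD4 cre recombinase (called CD4-cre), and cells of such a knockout by Foxp3 cre recombinase (called Foxp3-cre). A CD4 promoter drives Cre in T cells from the CD4-expressing thymocyte stage on, and a Foxp3 promoter drives it in regulatory T cells. The deleted part of Sirt1, the age and sex of the mice, and whether a sample was 1 mouse or a pool are not stated in the labels. No Cre-only control group was analysed here, so the effect of Cre and that of the Sirt1 deletion cannot be told apart. The samples are described as independent, without saying of what, so the p-values cover the spread among these samples, which may be technical.

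Granzymes are serine proteases that perforin lets into a target cell, where they trigger its death. Fasl kills by binding Fas on the target, and Nkg7 takes part in the release of granules. Killer cell lectin-like receptors recognise class I molecules of the major histocompatibility complex or their relatives: Klrd1 (CD94) pairs with NKG2 chains, Klrk1 (NKG2D) binds stress-induced ligands, and Klra8 (Ly49H) belongs to a family of very similar receptors. Activated regulatory T cells are known to use granzymes and perforin in suppression, whereas most NK receptors are textbook markers of NK cells, innate-like T cells and activated CD8 T cells.

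1 array stood apart. Wild type replicate 2 correlated with the other 8 arrays at 0.982 to 0.987, while every other array reached at least 0.995 with its closest partner. The difference between 5′ and 3′ probe sets, a sign of RNA quality, was −1.53 for actin and −1.10 for Gapdh on that array, against −0.68 to −0.45 and −0.36 to −0.05 on the others. The Sirt1 probe set read 6.77 on that array, 7.90 and 7.91 on the other wild type arrays, 7.59 to 7.69 in CD4-cre cells and 7.47 to 7.66 in Foxp3-cre cells, and passed in neither comparison; whether it lies in the deleted part is not given. T cell markers were high on all arrays (mean log2 signal of 6 genes, 10.65 to 10.85). The Foxp3 probe set read 9.16 to 9.69 in wild type and CD4-cre cells but 2.67, 3.38 and 2.83 in Foxp3-cre cells, so the defining regulatory T cell marker was not found there by this probe set, while Il2ra, Ctla4 and Tnfrsf18 did not pass the test in either comparison with wild type.

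The 250 bases before the start of 4 members are shown because these genes span the responses described below: Nkg7 fell, Gzmk rose, Gzmb did not pass the test, and Fasl fell by more than Nkg7. The sequences are those of RefSeq on build GRCm38.p6, read 5′ to 3′ on the strand of the gene, at chr7:43436888-43437137 (plus strand) for Nkg7, chr13:113180966-113181215 (minus strand) for Gzmk, chr14:56262335-56262584 (minus strand) for Gzmb and chr1:161788496-161788745 (minus strand) for Fasl. Capitals mark matches, on either strand, to the T-box core TCACAC (reverse complement GTGTGA), the Runx core TGTGGT (reverse complement ACCACA) and the AP-1 motif TGANTCA.
Nkg7: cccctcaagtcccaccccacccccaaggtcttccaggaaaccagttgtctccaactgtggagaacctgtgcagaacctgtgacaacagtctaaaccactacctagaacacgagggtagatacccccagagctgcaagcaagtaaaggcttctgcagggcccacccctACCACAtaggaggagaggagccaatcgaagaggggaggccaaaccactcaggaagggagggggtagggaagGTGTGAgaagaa
Gzmk: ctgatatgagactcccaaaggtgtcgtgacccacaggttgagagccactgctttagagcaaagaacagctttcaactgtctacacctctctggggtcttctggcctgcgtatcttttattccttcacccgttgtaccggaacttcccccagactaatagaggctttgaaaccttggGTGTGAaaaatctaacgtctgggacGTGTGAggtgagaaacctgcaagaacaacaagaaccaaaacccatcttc
Gzmb: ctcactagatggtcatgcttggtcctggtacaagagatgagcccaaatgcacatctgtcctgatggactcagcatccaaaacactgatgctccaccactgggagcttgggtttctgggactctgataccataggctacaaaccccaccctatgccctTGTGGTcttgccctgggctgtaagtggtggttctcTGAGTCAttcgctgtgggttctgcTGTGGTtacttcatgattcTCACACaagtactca
Fasl: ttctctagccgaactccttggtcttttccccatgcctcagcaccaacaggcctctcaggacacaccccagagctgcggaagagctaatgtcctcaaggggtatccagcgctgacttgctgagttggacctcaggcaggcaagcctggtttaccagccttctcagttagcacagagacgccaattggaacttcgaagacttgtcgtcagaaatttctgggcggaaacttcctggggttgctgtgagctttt
Counted back from the start, Nkg7 held a T-box core at −12 to −7 and a Runx core at −83 to −78. Gzmk held 2 T-box cores, at −74 to −69 and −49 to −44. Gzmb held 1 T-box core at −15 to −10, 2 Runx cores and the AP-1 motif at −58 to −52. In the Fasl window none of these letters occurred. Over the 11 windows of the 9 members in the RefSeq table (Klrd1 was the other member), 45.5% held a T-box core, against 12.3% of all 32851 windows of this length. A Runx core was in 63.6% of the members' windows and in 14.0% of all windows, and the AP-1 motif in 9.09% and 6.75%. The forkhead motif TGTTTAC was in 0 of the 11 windows and in 3.17% of all. These shares count windows, and Cd160 and Klra8 had 2 windows each. Of the 9 members, 4 held a T-box core and 6 a Runx core, Cd160 in both of its windows. No 2 motifs overlapped in the windows shown, the motifs were chosen after the values were seen, and a match is a description, not a binding site.

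Of the 3 granzymes, 1 passed the test. Gzmk rose in Foxp3-cre cells, by 1.34 on the log2 scale or 2.53-fold. Gzmk read 4.97, 4.96 and 4.93 on the wild type arrays, 5.59, 5.57 and 5.75 on the CD4-cre arrays and 6.84, 5.68 and 6.36 on those with Foxp3-cre. All 6 knockout arrays lay above all 3 wild type arrays, and the Foxp3-cre arrays were the most spread. The rise in Foxp3-cre cells had an SE of 0.23 and a limma adjusted p of 0.0212 (n = 3 per group), whereas the difference in CD4-cre cells, 0.68 (SE 0.23), had a limma adjusted p of 0.237. Since the wild type signal lay below the filter, near the dim end where array signals are compressed, the fold is uncertain in size. Its passing of the filter came from the knockouts, and in the fit with no filter on low signal, over 12393 genes, its limma adjusted p was 0.0245. The Gzmk call was lost without wild type replicate 3 (limma adjusted p 0.0655) and without Foxp3-cre replicate 3 (limma adjusted p 0.0741), and held in the other 7 of 9 fits that left out 1 array. In such bulk samples, fewer cells of a type and less RNA per cell cannot be told apart.

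Gzma, which lies directly beside Gzmk on chromosome 13 with no protein-coding gene between them, passed in neither comparison. Its signal was 10.12, 10.11 and 10.04 on the wild type arrays, 9.58, 9.39 and 10.04 on the CD4-cre arrays and 9.67, 9.73 and 10.32 on those with Foxp3-cre. The CD4-cre arrays lay below all wild type arrays, the third by a margin under the rounding shown, and of the Foxp3-cre arrays the third lay above them and the other two below. The differences were −0.42 with CD4-cre and −0.19 with Foxp3-cre (SE 0.20), with limma adjusted p of 0.371 and 0.586. Gzmb, the granzyme best known from regulatory T cells, read 8.34, 7.64 and 8.55 on the wild type arrays, 7.89, 7.86 and 8.26 on the CD4-cre arrays and 8.05, 8.12 and 8.30 on those with Foxp3-cre. The 3 groups of Gzmb overlapped, with wild type replicate 2 the lowest of all arrays. The remaining wild type arrays, at 8.34 and 8.55, lay above every knockout array. The differences of Gzmb were −0.17 and −0.01 (SE 0.21), with 95% intervals of −0.65 to 0.31 and −0.49 to 0.46. When 1 array was left out they ranged from −0.44 to 0.017 and from −0.28 to 0.17, and passed in 0 of 9 fits.

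**Figure D1:**
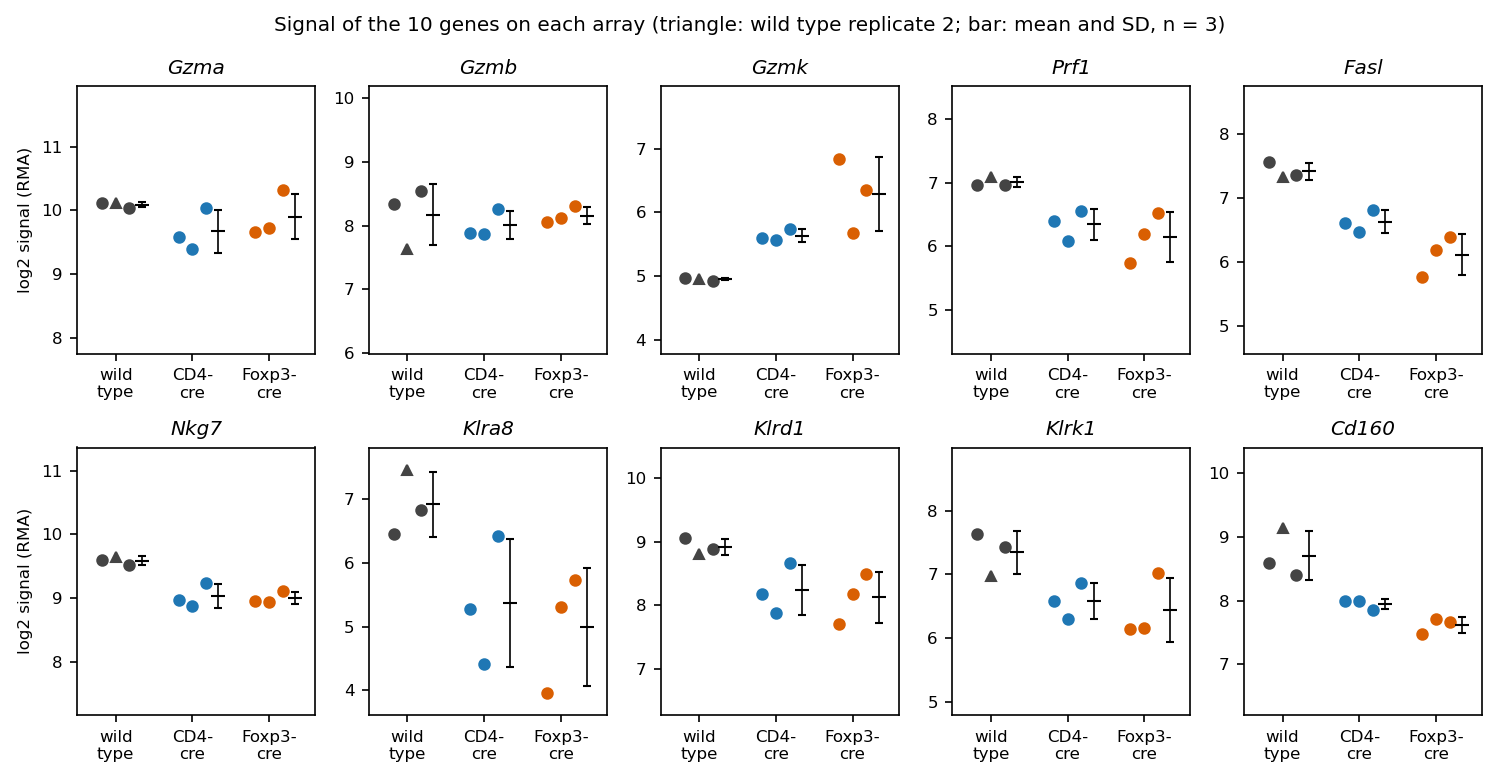
Log2 signal (vertical axis, RMA values, the same span in each panel) of the 10 genes on the 9 arrays, with points for arrays and a bar for the mean and SD of each group (n = 3). Prf1, Fasl, Nkg7, Klra8, Klrd1 and Cd160 show all 6 knockout arrays below the 3 wild type arrays, and Gzmk shows them above.

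Prf1, Fasl and Nkg7 fell in Foxp3-cre cells. Prf1 read 6.96, 7.09 and 6.97 on the wild type arrays, 6.40, 6.08 and 6.56 on the CD4-cre arrays and 5.74, 6.19 and 6.53 on those with Foxp3-cre. Both knockouts lay wholly below wild type, and overlapped each other. The fall in Foxp3-cre cells was −0.86 (SE 0.19, 1.81-fold, limma adjusted p 0.0432), and the difference in CD4-cre cells −0.66 (SE 0.19, limma adjusted p 0.172). This was the least stable of the calls: it was lost in 8 of 9 fits that left out 1 array (limma adjusted p up to 0.0997), and held only without Foxp3-cre replicate 3. A dim probe set of Prf1, at 3.76 to 4.55 on all arrays, differed by −0.21 and −0.0027, and the mean of both probe sets gave −0.43 in Foxp3-cre cells (limma adjusted p 0.146).

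Fasl, the death ligand, had the smallest adjusted p of the 10 genes in Foxp3-cre cells. It read 7.56, 7.34 and 7.36 on the wild type arrays, 6.61, 6.46 and 6.82 on the CD4-cre arrays and 5.76, 6.18 and 6.39 on those with Foxp3-cre. The 3 groups did not overlap and lay in that order. The fall in Foxp3-cre cells was −1.31 (SE 0.16, 2.48-fold, limma adjusted p 0.00631), and it passed in all 9 fits that left out 1 array. In CD4-cre cells the difference was −0.79 (SE 0.16, limma adjusted p 0.0709), and it passed in 1 such fit, without Foxp3-cre replicate 1 (limma adjusted p 0.0291). A second, dimmer Fasl probe set read 6.69, 5.32 and 6.33 on the wild type arrays, 5.83, 5.40 and 5.75 on the CD4-cre arrays and 5.34, 5.43 and 5.69 on those with Foxp3-cre. Its groups overlapped, wild type replicate 2 being the lowest array, and its differences were −0.46 and −0.63 (limma adjusted p 0.383 for the second in a fit of every probe set).

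Nkg7 read 9.60, 9.65 and 9.52 on the wild type arrays, 8.98, 8.88 and 9.24 on the CD4-cre arrays and 8.96, 8.94 and 9.12 on those with Foxp3-cre. Every knockout array was below every wild type array, and the 2 knockouts overlapped. The fall in Foxp3-cre cells was −0.58 (SE 0.10, 1.5-fold, limma adjusted p 0.0235). The difference in CD4-cre cells was nearly the same size, −0.55 (SE 0.10), with a limma adjusted p of 0.0598. The Foxp3-cre call was lost in 5 of 9 fits that left out 1 array, with limma adjusted p of 0.0535 to 0.0654 there: without wild type replicate 3, CD4-cre replicate 1 and each Foxp3-cre replicate. The CD4-cre difference passed in 1, without CD4-cre replicate 3 (limma adjusted p 0.0466).

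Of the 4 receptors, Cd160 fell in Foxp3-cre cells and the other 3 were lower without passing. Cd160, a glycolipid-anchored receptor of NK and T cells that binds Tnfrsf14, read 8.59, 9.14 and 8.40 on the wild type arrays, 8.0, 7.99 and 7.86 on the CD4-cre arrays and 7.47, 7.72 and 7.66 on those with Foxp3-cre. The 3 groups did not overlap, and wild type replicate 2 was the highest array. The fall in Foxp3-cre cells was −1.09 (SE 0.17, 2.13-fold, limma adjusted p 0.0148) and passed in all 9 fits that left out 1 array. The difference in CD4-cre cells was −0.76 (SE 0.17, limma adjusted p 0.0921), and without wild type replicate 2 it was −0.54 and passed (limma adjusted p 0.0312). The other 2 Cd160 probe sets went the same way, by −0.71 and −0.45 with CD4-cre and by −1.02 and −0.78 with Foxp3-cre. In a fit of every probe set, in which 1.11% were called, all 3 Cd160 sets fell in Foxp3-cre cells (limma adjusted p 0.0209, 0.0227 and 0.0359).

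Klrd1 and Klrk1 stand directly beside each other on chromosome 6, with Klra8 further along the same receptor cluster. Klrd1 read 9.05, 8.81 and 8.89 on the wild type arrays, 8.17, 7.88 and 8.67 on the CD4-cre arrays and 7.71, 8.17 and 8.49 on those with Foxp3-cre. All knockout arrays were below wild type, replicate 3 of each knockout being the closest. The differences were −0.67 and −0.79 (SE 0.23), with limma adjusted p of 0.231 and 0.0933. Klrk1 read 7.64, 6.97 and 7.43 on the wild type arrays, 6.59, 6.30 and 6.87 on the CD4-cre arrays and 6.14, 6.17 and 7.02 on those with Foxp3-cre. Of the knockout arrays, Foxp3-cre replicate 3 alone lay above a wild type array, replicate 2. Its differences were −0.76 and −0.90 (SE 0.26), with limma adjusted p of 0.239 and 0.0937, and the second passed without wild type replicate 2 (−1.09, limma adjusted p 0.0495) and without Foxp3-cre replicate 3 (−1.19, limma adjusted p 0.0460).

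Klra8 had the largest differences of the 10 and the widest spread. It read 6.46, 7.47 and 6.84 on the wild type arrays, 5.28, 4.41 and 6.43 on the CD4-cre arrays and 3.96, 5.31 and 5.73 on those with Foxp3-cre. The highest CD4-cre array came close to the lowest wild type array, and the Foxp3-cre arrays were all lower. Its differences were −1.55 and −1.92 (SE 0.55), with limma adjusted p of 0.260 and 0.0937, and it passed in none of the 9 fits that left out 1 array. Its probe set is of the type whose probes also match other transcripts, so the signal may include other Ly49 receptors and is uncertain as a measure of Klra8 alone.

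Over the 10 genes, 5 of 10 were called in Foxp3-cre cells where 3.36% of all tested genes were called. Of these 4 fell, against 1.67% of tested genes, and 1 rose, against 1.69%, the latter being Gzmk, which passed the filter only through the knockouts. In CD4-cre cells 0 of 10 were called by limma, where 0.659% of tested genes were, and 8 of 10 had an unadjusted p below 0.05, against 14.1% of tested genes. In Foxp3-cre cells 8 of 10 had such a p, against 21.3%. The median difference of the members was −0.67 with CD4-cre and −0.82 with Foxp3-cre, and that of all tested genes 0.03 and 0.01. Lower means were found for 9 of 10 members in each knockout, all but Gzmk, against 43.7% and 48.9% of tested genes. Prf1, Fasl, Nkg7, Klra8, Klrd1 and Cd160 (6 of 10) had all 6 knockout arrays below all 3 wild type arrays, as did 5.29% of tested genes, and Gzmk alone had them above, as did 5.66%. Both knockouts share the same wild type arrays, so the 2 comparisons are not independent. The members were chosen with earlier results of these data known, so these shares do not test them as a set.

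**Figure D2:**
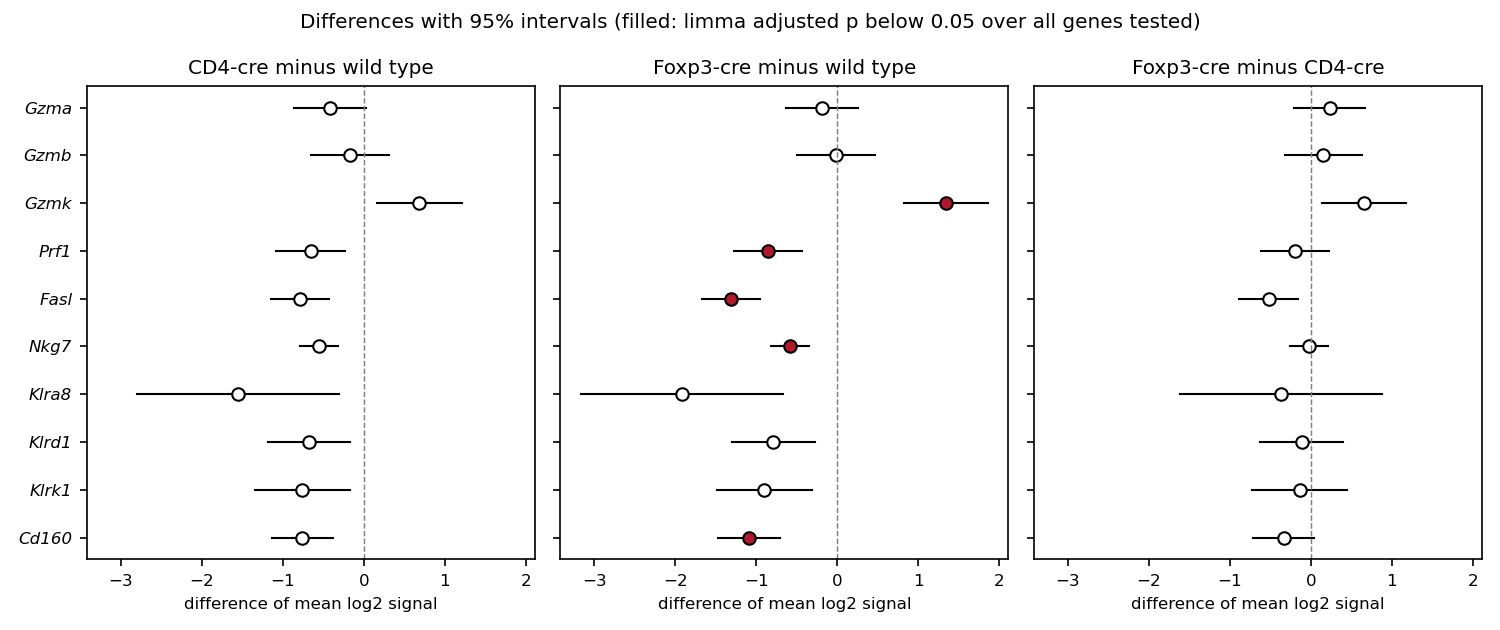
Difference of mean log2 signal (horizontal axis) for each gene in the 3 comparisons, with unadjusted 95% intervals from limma and filled points for an adjusted p below 0.05. In CD4-cre minus wild type 0 of 10 points are filled, in Foxp3-cre minus wild type Gzmk, Prf1, Fasl, Nkg7 and Cd160 are, and in Foxp3-cre minus CD4-cre 0 are.

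The knockouts were also compared with each other. These groups differ in the driver of Cre, but also in other signals. The mean of the neutrophil markers, for example, was 8.88 to 9.83 in CD4-cre and 9.91 to 10.77 in Foxp3-cre cells. An effect of the driver alone therefore cannot be told apart in this comparison. None of the 10 passed in limma, where 0.0134% of tested genes (1 gene, Foxp3) was called, and 2 of 10, Fasl and Gzmk, had an unadjusted p below 0.05, against 11.3% of tested genes. Fasl was lower in Foxp3-cre than in CD4-cre cells, with a difference of −0.52 (95% interval −0.88 to −0.16, limma adjusted p 0.269), and Gzmk higher by 0.65 (0.13 to 1.18, limma adjusted p 0.323). Fasl and Cd160 were the members whose 2 knockout groups did not overlap, a separation in that direction found for 18.8% of tested genes. For Nkg7 the difference was −0.03, with an interval of −0.26 to 0.21, the narrowest of the 10, while that of Klra8, −0.37, had an interval of −1.62 to 0.87. The median over the 10 was −0.13, and the signs of Prf1, Nkg7, Klra8, Klrd1 and Klrk1 turned when a single knockout array was left out. With array weights, which give wild type replicate 2 little weight, 812 of the 7436 tested genes passed between the knockouts. Cd160 was the only member among them (limma adjusted p 0.0337), and it passed in 0 of 9 fits that left out 1 array. In the fit of all arrays with equal weight no difference between the knockouts was detectable for these genes, and the intervals do not show that they are alike.

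Within each knockout most members shared 1 order of the arrays. CD4-cre replicate 3 was the highest of its group for 9 of 10 members, all but Cd160, against 35% of tested genes, and replicate 2 was the lowest for the same 9 members, against 30.5%. In Foxp3-cre cells, replicate 3 was the highest for 8 of 10, against 23.8% of tested genes, and replicate 1 the lowest for 8 of 10, against 31.8%. After each group's mean was removed, Pearson's r over the 9 arrays was 0.95 between Fasl and Klrd1, 0.92 between Prf1 and Klra8 and 0.91 between Gzma and Nkg7. Further pairs were nearly as close, such as Gzma and Klrd1 (0.90), Prf1 and Klrd1 (0.89) and Prf1 and Fasl (0.88). Pairs with Gzmk, Gzmb or Cd160 were mostly weaker or negative. Gzmk had −0.39 with Fasl, −0.33 with Prf1 and −0.31 with Klra8. Gzmb had −0.86 with Cd160, 0.14 with Klra8 and 0.20 with Nkg7, but 0.71 with Klrk1 and 0.53 with Klrd1. Cd160 shared only part of this order, being lowest on Foxp3-cre replicate 1. Its r was 0.04 with Fasl, −0.06 with Klrd1 and −0.39 with Klrk1 once group means were removed, against 0.87, 0.70 and 0.62 before. In Foxp3-cre cells Gzmk was highest on replicate 1 and lowest on replicate 2, and Nkg7 was also lowest on replicate 2. These correlations rest on 9 arrays in 3 groups and are descriptions.

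Markers of NK and innate lymphoid cells, taken as a mean, followed the same order within the knockouts. Of the 8 listed genes 6 were on the array and 5 tested, and 0 passed in any comparison. Their mean log2 signal was 7.21, 7.09 and 7.29 on the wild type arrays, 6.78, 6.64 and 7.24 on the CD4-cre arrays and 6.70, 7.05 and 7.35 on those with Foxp3-cre, so that replicate 3 was the highest of each knockout, and the log2 of their summed signal was 10.63 to 10.94, 10.05 to 10.85 and 10.25 to 11.32. Klrc1, the NKG2A partner of Klrd1, read 8.25, 8.02 and 8.09 on the wild type arrays, 7.25, 6.64 and 7.82 on the CD4-cre arrays and 6.77, 7.21 and 7.53 on those with Foxp3-cre. Tyrobp, an adaptor of activating receptors, was highest in Foxp3-cre replicate 3, at 10.56, and Itga2, a defining NK cell marker, was dim throughout, at 3.30 to 3.72. The tested genes of this list did not all go 1 way: in Foxp3-cre cells 3 were lower than in wild type and 2 higher. Klrc1 was among the lower (−0.95) and Tyrobp among the higher (0.13). Macrophage and neutrophil markers followed the same order of the knockout arrays, so that order was not particular to NK markers. The macrophage list had mean log2 signals of 6.06, 5.82 and 7.16 on the CD4-cre arrays and 6.78, 7.61 and 8.39 on those with Foxp3-cre. For the neutrophil list they were 9.07, 8.88 and 9.83 with CD4-cre and 9.91, 10.21 and 10.77 with Foxp3-cre. The part of any of these cell types in the members' differences was not tested.

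**Figure D3:**
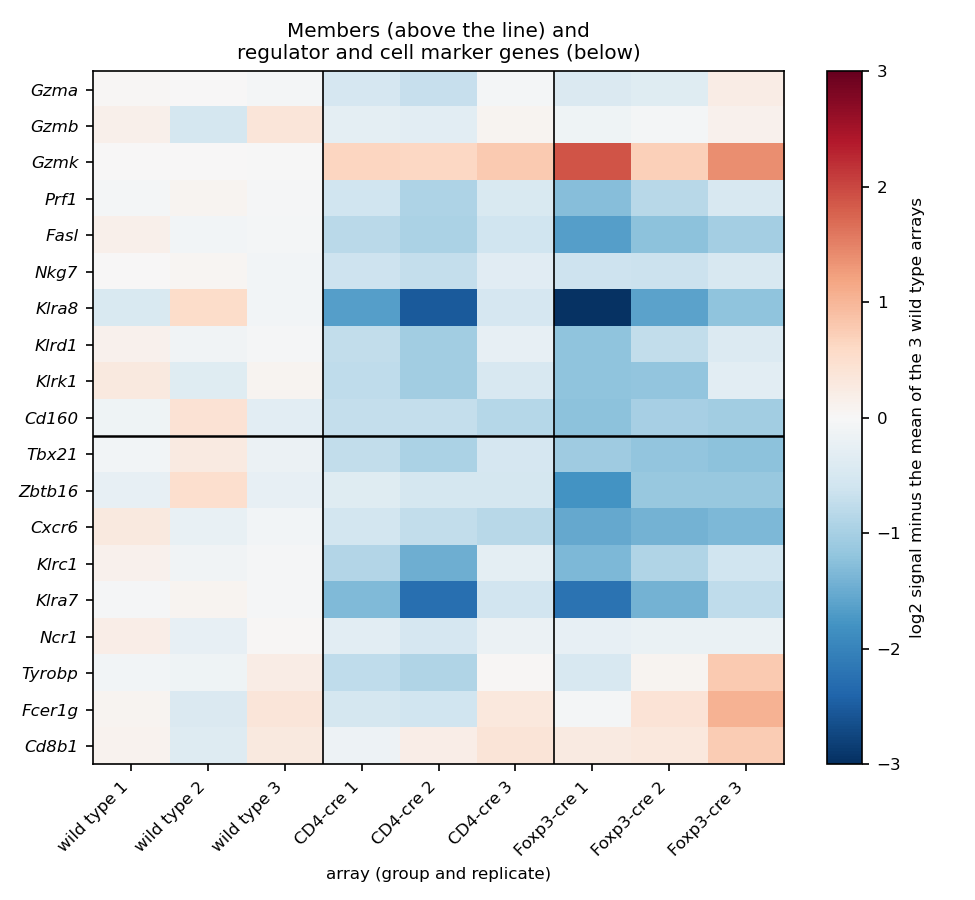
Log2 signal minus the mean of the 3 wild type arrays (colour, blue lower and red higher) for the 10 members above the line and for Tbx21, Zbtb16, Cxcr6, Klrc1, Klra7, Ncr1, Tyrobp, Fcer1g and Cd8b1 below it, 1 column per array. Replicate 3 of each knockout is the closest to wild type for Prf1, Klra8, Klrd1, Klrk1 and Klrc1, whereas Cxcr6 is lower on all 3 Foxp3-cre arrays, at 7.87 to 8.05.

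Markers of other cell types differed as well. Innate-like T cell markers, 3 of 4 tested, had a mean log2 signal of 8.36 to 8.54 in wild type, 7.99 to 8.15 in CD4-cre and 7.27 to 7.57 in Foxp3-cre cells, without overlap, and 2 of the 3, Cxcr6 and Zbtb16, fell in Foxp3-cre cells. Cxcr6, a chemokine receptor of such cells, read 9.70, 9.18 and 9.32 on the wild type arrays, 8.85, 8.67 and 8.56 on the CD4-cre arrays and 7.87, 7.97 and 8.05 on those with Foxp3-cre, a fall of −1.44 (limma adjusted p 0.00158). Neutrophil granule genes rose in Foxp3-cre cells for 5 of 7 (for example Mpo by 1.81 and Elane by 1.14, limma adjusted p 0.0289 and 0.00597), as did cell cycle genes for 5 of 7 (for example Kif11 by 1.27, limma adjusted p 0.0196) and 1 of 4 macrophage genes, C1qb (2.47, limma adjusted p 0.0368). Of the CD8 T cell, B cell, plasmacytoid dendritic cell and mast cell or basophil genes tested (2, 3, 2 and 2), 0 passed in any comparison. The log2 of the summed signal was 12.90 to 13.77, 13.06 to 14.21 and 14.07 to 15.09 for the neutrophil list, and 10.45 to 10.64, 10.81 to 10.91 and 11.16 to 12.04 for the cell cycle list, in wild type, CD4-cre and Foxp3-cre cells in turn. Their part in the differences of the members, Gzmk included, was not tested.

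In the rest of the granule machinery single genes passed. Of 12 other granzymes and granule contents, 6 passed the filter, and 1 fell in Foxp3-cre cells: Ctsw, a cathepsin of cytotoxic lymphocytes (−0.80, limma adjusted p 0.0258). It read 9.71, 10.22 and 9.65 on the wild type arrays and 9.23, 8.92 and 9.03 on those with Foxp3-cre, without overlap. Gzmc, Gzmd, Gzme, Gzmf, Gzmg and Gzmn were below the filter. Of the granzyme and cathepsin inhibitors 0 of 4 passed, with Serpinb6b at −0.43 and −0.39 and Serpinb6a at 0.10 and 0.32 in CD4-cre and Foxp3-cre cells, the largest sizes of the 4 in Foxp3-cre cells. Of 9 genes for docking and release of granules, 1 rose in both knockouts: Sytl1, a synaptotagmin-like protein that binds Rab27, by 1.18 with CD4-cre and 0.89 with Foxp3-cre (limma adjusted p 0.00327 and 0.00517). Sytl1 was 7.20 to 7.51 in wild type, 8.47 to 8.55 in CD4-cre and 8.06 to 8.35 in Foxp3-cre cells. Among 8 genes of death ligands, their receptors and signalling, 0 passed, with Cflar at −0.19 and −0.32 and Fas, the receptor of Fasl, at −0.07 and −0.31.

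Other NK receptors and adaptors were mostly lower in the knockouts. 10 of 28 could be tested, and 9 of the 10 were lower in each knockout, where 43.7% (CD4-cre) and 48.9% (Foxp3-cre) of all tested genes were, with medians of −0.34 with CD4-cre and −0.30 with Foxp3-cre. 1 of them passed: Hcst (DAP10), the signalling adaptor of Klrk1, fell in Foxp3-cre cells (−0.62, limma adjusted p 0.0329) and read 9.79, 10.18 and 9.78 on the wild type arrays and 9.12, 9.42 and 9.35 on those with Foxp3-cre. Of 4 ligands of these receptors 1 fell there, Pvr (−0.47, limma adjusted p 0.0191). Of 14 regulators of the cytotoxic programme, 2 fell in Foxp3-cre cells and 0 passed in CD4-cre cells. Tbx21 (T-bet), a T-box factor that drives cytotoxic and NK genes, fell (−1.16, limma adjusted p 0.00643) and differed by −0.73 in CD4-cre cells (limma adjusted p 0.0661). It read 8.66, 9.02 and 8.56 on the wild type arrays, 8.02, 7.80 and 8.24 on the CD4-cre arrays and 7.69, 7.56 and 7.52 on those with Foxp3-cre, in groups that did not overlap. Zbtb16 (PLZF), a regulator of innate-like T cells already counted among their markers above, fell (−1.36, limma adjusted p 0.0191). The Foxp3-cre mean of Zbtb16, 4.46, lay below the filter on low signal, so the size of that fall is uncertain. Apart from Foxp3, 0 genes of these lists passed between the knockouts in the fit of all arrays.

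Without wild type replicate 2, a fit added after the data were seen, more genes of the lists passed against wild type, as did more of all 7436 tested genes: 567 in place of 250 in Foxp3-cre and 191 in place of 49 in CD4-cre cells. In Foxp3-cre cells Ctsc, which activates granzymes, and Serpinb6a then rose (0.41 and 0.40), and Serpinb6b, Lyst, Sytl2, Fas, Tnf, Cd96 and Stat4 fell, from Sytl2 at −0.65 to Cd96 at −0.32. In CD4-cre cells Serpinb6b (−0.51), Tbx21 (−0.59), Stat4 (−0.48) and Cxcr6 (−0.81) fell. Ctsw, Sytl1, Hcst, Pvr, Tbx21, Zbtb16 and Cxcr6 passed in Foxp3-cre cells in this fit too. Of the neutrophil and cell cycle genes, 4 and 5 of 7 rose in it, and between the knockouts Ctsc was higher (0.41) and Cxcr6 lower (−0.73) in Foxp3-cre cells, both passing.

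**Figure D4:**
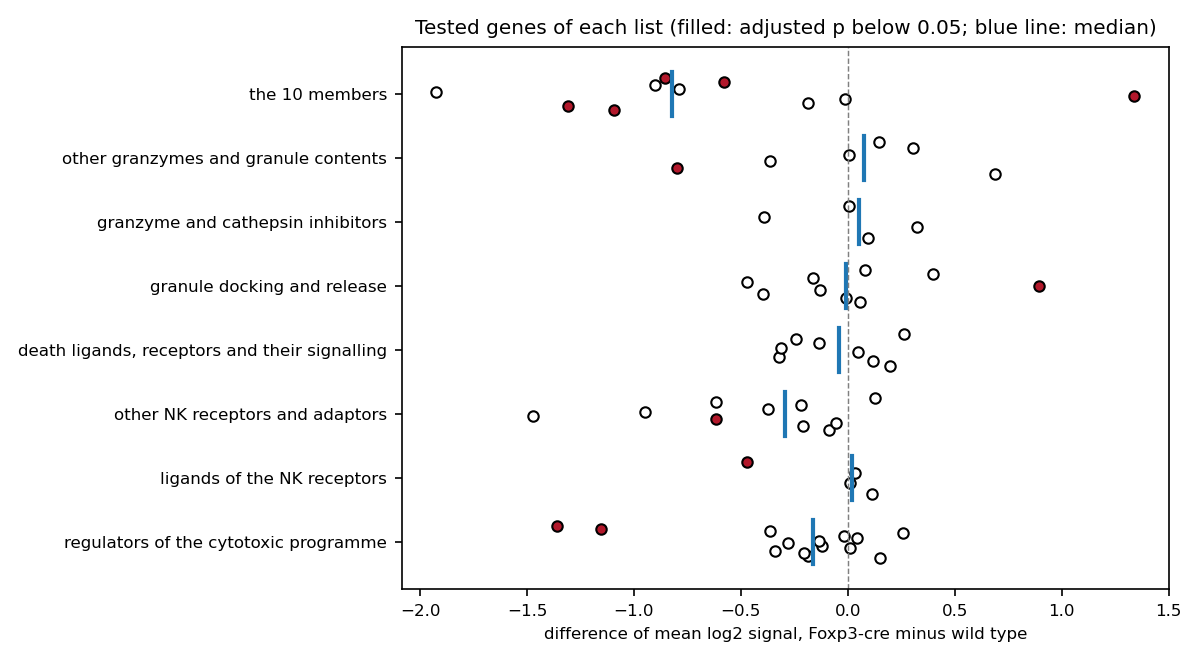
Difference of mean log2 signal, Foxp3-cre minus wild type (horizontal axis), of each tested gene, by list; filled points have a limma adjusted p below 0.05 and blue lines are medians. The members' median is −0.82, that of other NK receptors and adaptors −0.30 and that of granule docking and release −0.01, with Sytl1 the filled point at 0.89.

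For the 7 members whose signal ranged over more than 1 log2 unit, the 3 most similar genes were taken by Pearson's r over the 9 arrays. Klrd1 was most like Klrc1 (0.99) and Klra7 (0.98), and Prf1 and Klra8 were most like Klra7 (0.97 each). Fasl was most like Aqp9, a water and glycerol channel (0.98), which fell in both knockouts, with differences of −1.0 and −1.29 (limma adjusted p 0.0148 and 0.00328). Gzmk was most like Stmn1, a microtubule regulator of dividing cells (0.98), which rose in Foxp3-cre cells by 0.99 (limma adjusted p 0.00960). The genes most like Klrk1 were Arhgap18 (0.98), Sulf2 (0.96) and Cnr2 (0.93), and the gene most like Cd160 was Cox7a2l (0.996), a factor of respiratory supercomplexes. All these pairs share the differences between the 3 groups.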

How the data were processed

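RNA from 9 samples (3 per group) was hybridised to Affymetrix arrays. The deposited log2 values were made by the authors with RMA, a method that corrects background, quantile-normalizes and summarises probe sets, per the submitters' processing notes; no software version is stated there. Affymetrix arrays give no read depth, and their number limits the precision. Of 22690 probe sets, 64 controls were left out, 20380 have 1 gene in the platform annotation, 691 several and 1555 none. Each gene was read from its probe set with the highest mean, and genes were tested whose mean reached the 40th percentile of gene means (log2 4.98). limma 3.58.1 (R 4.3.3) fitted all 9 arrays in 3 groups, with moderated variance (lmFit, eBayes) and Benjamini-Hochberg adjustment over 7436 genes at 0.05. The spread of a change had a median SE of 0.11. On simulated data for Foxp3-cre minus wild type, 92 of 100 genes changed by 1 log2 unit were recovered among 7436. The simulated noise was independent for each gene and array, with no outlying array. This share therefore need not hold for the real arrays or for these members. An exact permutation test of 3 against 3 arrays cannot go below 0.1 and was not used. Genes were named by a rule: the members, list genes that passed (or the 2 largest differences), and the 3 nearest genes of each member. Members and lists were chosen with earlier results of these data known.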

Additional observations from a re-analysis of the deposited data

How the results depend on the processing

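The members' differences gave 555 values under the alternatives, of which 496 kept their direction and their side of the threshold, 22 lost a call, 19 gained one and 18 changed sign. In Foxp3-cre minus wild type, Fasl was called under all 18 of its alternatives (limma adjusted p 0.00105 to 0.0421) and Cd160 under 18 of 19, all but the fit of the 2 groups compared alone (0.0811). Gzmk was called in 15 of 18, Nkg7 in 13 of 19 and Prf1 in 6 of 18.

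The 5 calls became 2 to 5 when 1 array was left out, with the lowest count, Fasl and Cd160, without wild type replicate 3; 2 with the filter at the 60th percentile, which keeps fewer members; and 1, Fasl, in the fit of the 2 groups alone. In CD4-cre minus wild type the 0 calls became 0 to 1 without 1 array, 1 with median centring (Nkg7), 1 with 2 groups alone (Gzmk) and 9 with array weights, which gave wild type replicate 2 a weight of 0.0824; Gzma was then the member not called. Between the knockouts, array weights gave 1 call, Cd160.

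All tested genes called in CD4-cre minus wild type (49) became 4 to 191 without 1 array (4 without CD4-cre replicate 2, 191 without wild type replicate 2), 1298 with array weights, 29 with the 60th percentile filter and 22 with 2 groups alone. In Foxp3-cre minus wild type 250 became 71 to 567 without 1 array (71 without Foxp3-cre replicate 3, 567 without wild type replicate 2), 1539 with array weights, 152 genes when every probe set was tested singly and each gene was read from its main set (252 of 22626 probe sets in that fit) and 16 with 2 groups alone. Between the knockouts 1 became 1 to 72 without 1 array (72 without wild type replicate 2), 812 with array weights, 5 with quantile normalization, 2 with median centring and 55 with 2 groups alone.

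The replicate number as a block gave 96 genes between the knockouts and added Klrk1 in Foxp3-cre minus wild type (limma adjusted p 0.0312). The 9 same-numbered pairs had correlations of −0.03 to 0.49, with 7 over 0.1, against 2 of the 18 pairs of unlike number. Since 2 same-numbered pairs were not over 0.1 and no label ties the numbers, whether the samples were paired is not settled, and the fit without the block was kept.

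Signs turned for small differences. Without 1 array, Gzmb ranged from −0.44 to 0.017 in CD4-cre minus wild type and from −0.28 to 0.17 in Foxp3-cre minus wild type. Between the knockouts, without 1 array, Prf1 ranged from −0.39 to 0.0082, Nkg7 from −0.10 to 0.078, Klra8 from −0.85 to 0.15, Klrd1 from −0.30 to 0.098 and Klrk1 from −0.43 to 0.0098. The highest of these 5 came without CD4-cre replicate 3 or Foxp3-cre replicate 1. Array weights turned Nkg7 (0.014), Klra8 (0.10) and Klrd1 (0.071), and the mean of all probe sets turned Prf1 (0.0062). The cause was not tested.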
